A study of Homo sapiens with 4 samples.

Results

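The genes described here are 10 neuronal RNA-binding and splicing proteins, chosen by gene symbol, and all 10 were found among the 55765 symbols of the deposited count table. They are ELAVL2, ELAVL3 and ELAVL4, NOVA1 and NOVA2, RBFOX1 and RBFOX2, PTBP1 and PTBP2, and SRRM4. RNA-seq counts came from SK-N-BE(2)C, an established human neuroblastoma cell line with amplified MYCN. In the first group the cells grew for 144 h in 10 µM all-trans retinoic acid (ATRA), a vitamin A derivative under which such cells differentiate. In the second they grew equally long in the solvent, ethanol. Each group had 2 libraries, and since no label states that these were separate cultures, the p-values reflect the spread between libraries, which may be technical.

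RNA-binding proteins of neurons act after transcription. The ELAVL (Hu) proteins bind U-rich and AU-rich stretches of mRNA and stabilise them, NOVA proteins bind YCAY clusters and RBFOX proteins bind UGCAUG next to the exons they control. PTBP1 keeps neuronal exons out of mRNA in dividing cells, and its fall during neuronal differentiation lets PTBP2 and then the neuronal exon programme appear. SRRM4 promotes the inclusion of neuronal microexons, and it and the transcriptional repressor REST oppose each other. Gene-level counts give the abundance of these mRNAs and not the choice of exons, nor the amount of protein.

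The libraries held 15518828 and 16498355 reads with ATRA, and 12850462 and 19883465 reads with ethanol. The members together took 0.114% and 0.150% of reads with ATRA and 0.0895% and 0.122% with ethanol. The first library of each group stood apart from the second in its share of mitochondrial ribosomal RNA, with 2.49% in ATRA 1 and 5.96% in ethanol 1, beside 0.130% in ATRA 2 and 0.0291% in ethanol 2. Differences within libraries of the same number are therefore given beside the main values. All 11 sympathoadrenal markers were detected, with summed levels of 2685 and 3973 CPM (counts scaled to a common library size) with ATRA and 5160 and 4878 CPM with ethanol. Of these, CHGA (chromogranin A) and GATA3 fell (edgeR quasi-likelihood adjusted p 0.0381 for each), CHGA to 187 and 235 CPM with ATRA, against 2511 and 1605 CPM with ethanol. PHOX2A had 454 and 275 CPM with ATRA, against 221 and 165 CPM with ethanol, and did not pass. Summed levels of the 4 epithelial markers were 8.06 and 12.1 CPM against 1.92 and 2.03 CPM, and those of the 5 Schwann cell and glial markers 17.9 and 21.0 CPM against 9.08 and 6.79 CPM, with ATRA first. Immune markers (4, of which CD68 was at 0 in all 4 libraries) summed to at most 1.56 CPM with ATRA and 0.847 CPM with ethanol, and endothelial markers (3) to at most 0.658 and 0.462 CPM. Fibroblast and muscle markers (6) summed to 164 and 337 CPM with ATRA and 195 and 430 CPM with ethanol, a sum made up mostly of DCN and PDGFRB, whose values overlapped between the groups. Of the same list, COL1A1 (collagen) had 23.0 and 4.91 CPM with ATRA, against 0 and 0.644 CPM with ethanol, and ACTA2 (smooth muscle actin) 51.2 and 11.6 CPM, against 1.85 and 3.47 CPM. No marker in these 5 lists of other cell types passed the test described next, and their part in the results was not tested.

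How did the 10 mRNAs differ between ATRA and ethanol? ELAVL4 and ELAVL2 had about 3.16 and 2.60 times the mean level with ATRA, while RBFOX1, scarce with ethanol, was nearly absent with ATRA. PTBP1 and SRRM4 lay somewhat lower in both ATRA libraries, and the other members had library values that overlapped between the groups. With edgeR's quasi-likelihood test and Benjamini-Hochberg adjustment over the 18900 genes tested, 0 of 10 members passed an adjusted p of 0.05, where 0.698% of all genes passed (0.545% higher and 0.153% lower with ATRA). At an unadjusted p under 0.05 there were 2 members on the higher side, ELAVL2 and ELAVL4, and 1 on the lower side, RBFOX1, beside 9.43% and 6.49% of all genes. RBFOX1 passed the count filter through the ethanol libraries alone, so only the lower side was open to it. DESeq2 called 1 member, ELAVL4 (higher), where it called 7.92% of genes (5.03% higher and 2.89% lower). limma-voom called 0 of 10 members, where it called 0.265% of genes (0.228% higher). The median log2 fold change was 0.18 over the members and 0.01 over all genes tested. In such bulk samples, fewer cells of a type and less RNA per cell cannot be told apart.

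**Figure D1:**
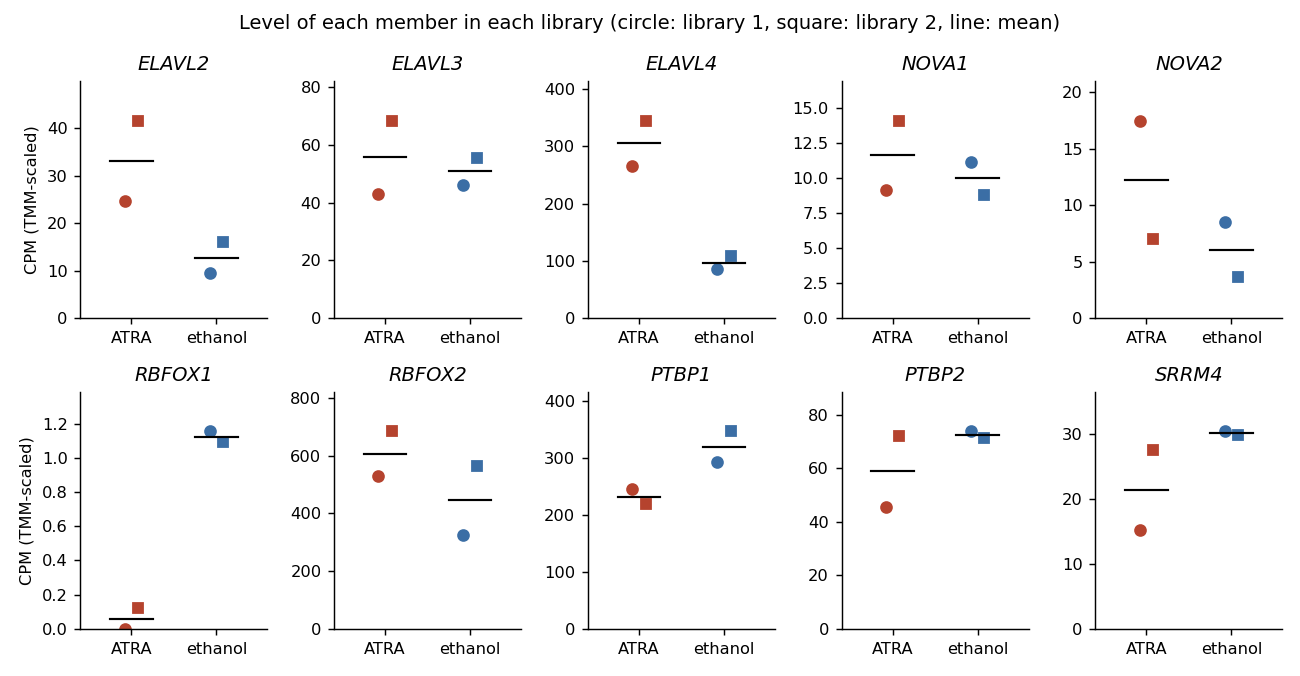
Level of each of the 10 members in CPM on TMM-scaled library sizes (y axis, linear from 0, own scale per panel), with ATRA libraries on the left and ethanol libraries on the right; circles are libraries numbered 1, squares those numbered 2, and lines the mean of 2. Both ATRA libraries lie above both ethanol libraries for ELAVL2 and ELAVL4, and below them for RBFOX1, PTBP1 and SRRM4.

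Library values did not overlap for 5 of the 10 members, 2 with both ATRA libraries above and 3 with both below. Over all genes tested this held for 45.5%, with 23.8% above and 21.7% below, so the members' share is near that of all genes. RBFOX1, among the 3 below, could enter the test only on that side.

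Of the members, ELAVL4 and ELAVL2 had the largest positive log2 fold changes, though neither passed the test, and ELAVL3 had one near 0. ELAVL4 encodes HuD, which stabilises mRNAs of growing neurites such as GAP43. It had 266 and 345 CPM with ATRA, against 85.1 and 108 CPM with ethanol (306 ± 55.6 and 96.8 ± 16.5 CPM, SD, n = 2 each). Both ATRA libraries lay well above both ethanol libraries. Its log2 fold change was 1.66 ± 0.28 (SE; 95% interval 0.98 to 2.33; edgeR quasi-likelihood adjusted p 0.0664), and the differences within libraries 1 and within libraries 2 were 1.64 and 1.67. By p-value it ranked 270th of 18900 genes. It passed under 7 of 11 other settings, each of which also called more of all genes higher than the 0.545% above. These were DESeq2 (5.03%), a test of all detected genes, meaning 1 read or more (3.02%), protein-coding genes alone (1.39%), and the fits without ATRA replicate 1 (3.08%), ATRA replicate 2 (4.05%), ethanol replicate 1 (2.68%) or ethanol replicate 2 (3.98%). It did not pass with RLE size factors (0.561%), upper quartile factors (0.577%), library size alone (0.492%) or limma-voom (0.228%).

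ELAVL2 encodes HuB, expressed early in neuronal differentiation. It had 24.6 and 41.6 CPM with ATRA, against 9.47 and 16.0 CPM with ethanol (33.1 ± 12.0 and 12.7 ± 4.62 CPM, SD, n = 2 each). In each group the library numbered 2 was the higher, and the groups did not overlap. The log2 fold change was 1.37 ± 0.41 (95% interval 0.37 to 2.37; edgeR quasi-likelihood adjusted p 0.182), with 1.36 and 1.37 within libraries of the same number. With all 4 libraries and treatment as the sole term, ELAVL2 passed only when all detected genes were tested (edgeR quasi-likelihood adjusted p 0.0196). In that setting 3.02% of genes were called higher. ELAVL2 did not pass with DESeq2 (adjusted p 0.0526) or limma-voom (0.199). Nor did it pass by edgeR with protein-coding genes alone, RLE size factors, upper quartile factors or library size alone. For fits without a single library, sizes alone are given here. The log2 fold change was 1.69 without ATRA replicate 1 and 0.93 without ATRA replicate 2. Without ethanol replicate 1 it was 0.999, and without ethanol replicate 2 it was 1.82.

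ELAVL3, which encodes HuC of postmitotic neurons, had 43.1 and 68.4 CPM with ATRA, against 46.2 and 55.6 CPM with ethanol. The ethanol values lay between the ATRA values. Its log2 fold change was 0.13 ± 0.31, with an interval of -0.62 to 0.88 (edgeR quasi-likelihood adjusted p 0.912), and -0.10 and 0.30 within libraries of the same number. ELAVL1, the HuR gene found in all tissues and not a member, had 55.7 and 52.5 CPM with ATRA, against 65.3 and 71.3 CPM with ethanol (log2 -0.34 ± 0.23; edgeR quasi-likelihood adjusted p 0.578).

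The make-up of the ELAVL family was compared within each library, per kilobase of exon. ELAVL4 took 70.8% and 69.7% of the family with ATRA, against 44.7% and 46.3% with ethanol. ELAVL3 took 11.5% and 13.8% with ATRA, against 24.3% and 23.8%, and ELAVL1 11.1% and 7.99%, against 25.9% and 23.0%. ELAVL2 took 6.62% and 8.51% with ATRA, against 5.05% and 6.93% with ethanol, the sole family member whose shares overlapped between the groups. Reads of ELAVL2, ELAVL3 and ELAVL4 together were 6.0 and 8.66 times those of ELAVL1 with ATRA, and 2.16 and 2.53 times with ethanol. The log2 difference of this ratio, ATRA minus ethanol, was 1.63, with 1.48 and 1.78 within libraries of the same number. The exact two-sided permutation p was 0.333, the smallest that 2 against 2 libraries allow. ELAVL4 supplied most of the summed reads, 9700 with ATRA and 3294 with ethanol over both libraries. ELAVL3 had 1781 and 1722 reads, and ELAVL2 1058 and 446. A share depends on the other family genes too, and the CPM of ELAVL3 overlapped between the groups.

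**Figure D2:**
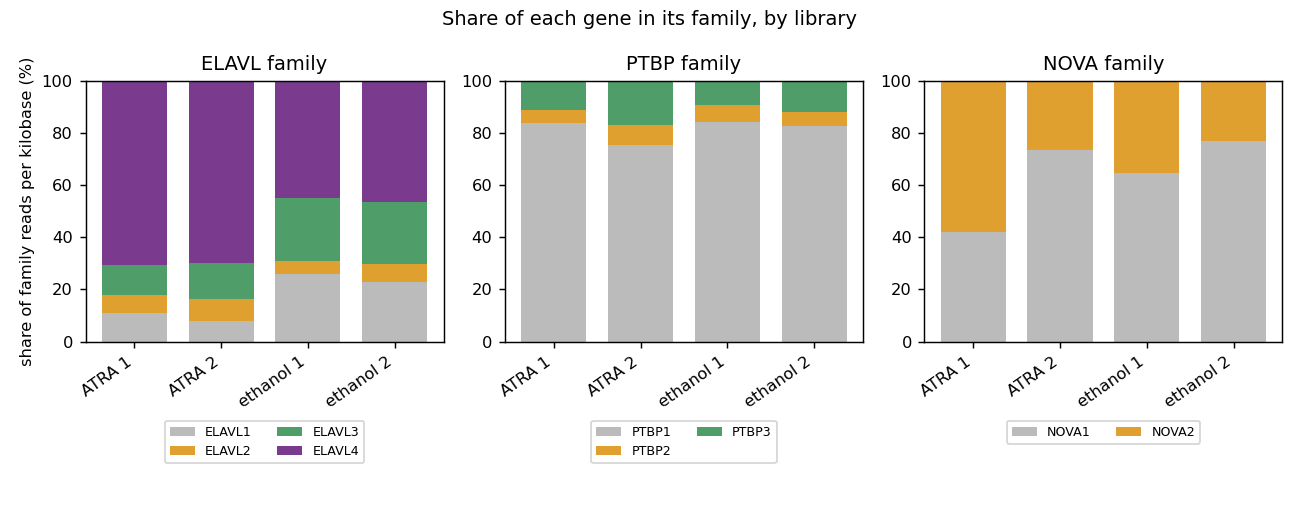
Share of each gene in the reads per kilobase of its family (y axis, %), one bar per library, with ATRA libraries left of ethanol libraries in each panel. ELAVL4 takes 70.8% and 69.7% of its family with ATRA and 44.7% and 46.3% with ethanol, while PTBP1 takes between 75.6% and 84.4% of its family in every library.

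Start regions of ELAVL4 and ELAVL2 are shown because these 2 genes had the largest differences on the higher side and retinoic acid receptors bind repeats of the half-site AGGTCA. The RefSeq promoter table (GRCh38.p14, from 250 bases before to 50 after each annotated start) held windows for 8 of the 10 members, 7 for ELAVL4 and 6 for ELAVL2. Which of these starts the cells used is not shown by gene-level counts. Direct repeats of half-sites (AGGTCA, or the variant GGGTCA, or the variant AGTTCA, both strands) were searched with spacings of 5 and 2. They occurred in 0.0427% and 0.0285% of the 35116 windows and in 0 of 8 members. Single AGGTCA half-sites, on either strand, lay in 13.8% of all windows, in 3 of 7 windows of ELAVL4 and in 1 of 6 of ELAVL2. By gene they lay in 4 of 8 members, also in NOVA2 (1 of 1 window) and in RBFOX1 (1 of 5), which was lower in both ATRA libraries, beside 16.5% of the 27305 genes in the table. These shares by gene are not alike, since a gene with more windows has more places for a match. ELAVL4, ELAVL2 and RBFOX1 had 7, 6 and 5 windows, where the table held 35116 windows for 27305 genes. The 4 windows of ELAVL4 and ELAVL2 follow, 5′ to 3′ on the gene's strand, with each AGGTCA or its reverse complement in capitals.
ELAVL4, chr1:50108670-50108969, plus strand: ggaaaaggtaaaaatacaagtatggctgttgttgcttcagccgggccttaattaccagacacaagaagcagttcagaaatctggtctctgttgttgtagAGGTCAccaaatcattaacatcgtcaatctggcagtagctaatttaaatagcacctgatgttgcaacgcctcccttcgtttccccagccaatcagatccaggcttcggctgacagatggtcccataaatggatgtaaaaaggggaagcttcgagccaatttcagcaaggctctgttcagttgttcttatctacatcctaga
ELAVL4, chr1:50109583-50109882, plus strand: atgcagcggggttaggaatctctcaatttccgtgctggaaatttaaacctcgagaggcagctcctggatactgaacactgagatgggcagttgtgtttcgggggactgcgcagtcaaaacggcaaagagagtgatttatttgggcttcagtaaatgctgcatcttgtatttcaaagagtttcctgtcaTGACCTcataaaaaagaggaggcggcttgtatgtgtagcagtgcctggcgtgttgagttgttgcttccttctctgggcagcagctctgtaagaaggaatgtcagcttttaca
ELAVL4, chr1:50120501-50120800, plus strand: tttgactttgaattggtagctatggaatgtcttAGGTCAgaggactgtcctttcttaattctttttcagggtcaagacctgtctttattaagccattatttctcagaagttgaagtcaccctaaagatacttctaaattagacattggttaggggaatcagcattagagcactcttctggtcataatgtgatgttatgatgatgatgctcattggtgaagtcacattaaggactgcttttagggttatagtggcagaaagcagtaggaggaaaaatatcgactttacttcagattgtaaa
ELAVL2, chr9:23823083-23823382, minus strand: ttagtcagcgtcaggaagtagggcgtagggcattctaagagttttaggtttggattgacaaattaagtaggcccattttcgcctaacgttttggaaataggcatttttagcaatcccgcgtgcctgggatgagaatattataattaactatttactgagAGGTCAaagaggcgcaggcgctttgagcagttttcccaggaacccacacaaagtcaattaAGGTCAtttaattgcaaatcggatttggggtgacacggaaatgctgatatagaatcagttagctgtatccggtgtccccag
The half-sites start 151, 62 and 217 bases before the annotated start in the ELAVL4 windows, in that order, and 91 and 31 bases before it in the ELAVL2 window. These 4 windows held 0 other motifs among those searched (the repeats above, CACGTG, and CAGCACC of the REST site). Over all windows, CACGTG lay in 2 of 8 members, ELAVL4 and RBFOX1, beside 8.77% of genes. CAGCACC lay in 4 of 8, NOVA1, RBFOX1, PTBP1 and SRRM4, beside 9.3% of genes. A match is a description of these letters and was not tied to binding.

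The NOVA genes encode KH-domain splicing regulators of neurons, first known as targets of autoimmune antibodies. NOVA1 had 9.14 and 14.1 CPM with ATRA, against 11.2 and 8.82 CPM with ethanol, so that the groups overlapped (log2 0.22 ± 0.38, interval -0.72 to 1.16; edgeR quasi-likelihood adjusted p 0.873). NOVA2, the form of cortical neurons, had 17.5 and 7.0 CPM with ATRA, against 8.47 and 3.67 CPM with ethanol. Within each group the library numbered 1 was more than 2 times the other, and the lower ATRA value fell between the ethanol values. Its log2 fold change was 1.02 ± 0.62, with an interval of -0.50 to 2.53 (edgeR quasi-likelihood adjusted p 0.517), while the differences within libraries 1 and 2 were 1.03 and 0.92. It was 0.22 without ATRA replicate 1, 1.53 without ATRA replicate 2, 1.69 without ethanol replicate 1 and 0.54 without ethanol replicate 2. The ratio of NOVA1 to NOVA2 reads was 0.523 and 2.02 with ATRA, against 1.32 and 2.41 with ethanol, a log2 difference of -0.79 (exact permutation p 0.667). In both groups the library numbered 2 had the higher ratio. The difference turned to 0.18 without ATRA replicate 1, and was -1.76 without ATRA replicate 2.

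The RBFOX family was almost wholly RBFOX2 in these cells. RBFOX1, the form of neurons, heart and skeletal muscle, had 0 and 2 reads with ATRA, against 15 and 22 reads with ethanol, or 0 and 0.120 CPM against 1.15 and 1.09 CPM. It passed the count filter through the ethanol libraries alone, so it could enter the test only as a gene lower with ATRA. The ratio of counts, ATRA over ethanol, was 0.0570 with a 95% exact counting interval of 0.00665 to 0.221. The fitted log2 fold change was -4.00 ± 1.12 (edgeR quasi-likelihood adjusted p 0.164), a size that depends on the prior count. It passed when all detected genes were tested (edgeR quasi-likelihood adjusted p 0.0140), where 1.86% of genes were called lower, and DESeq2 gave it no adjusted p. RBFOX3, the NeuN gene and not a member, had 1 read in each ATRA library and 1 and 14 reads with ethanol, and did not pass the count filter.

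RBFOX2, the widely expressed form, had 530 and 684 CPM with ATRA, against 326 and 564 CPM with ethanol (607 ± 109 and 445 ± 168 CPM, SD, n = 2 each). The lower ATRA value lay between the ethanol values. Its log2 fold change was 0.45 ± 0.34, with an interval of -0.39 to 1.28 (edgeR quasi-likelihood adjusted p 0.629), and 0.70 and 0.28 within libraries of the same number. Per kilobase, RBFOX2 took 99.97% of the family in both ATRA libraries, and 99.65% and 99.58% in the ethanol libraries.

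PTBP1, the repressor of neuronal exons, had 245 and 220 CPM with ATRA, against 293 and 347 CPM with ethanol (232 ± 18.1 and 320 ± 37.9 CPM, SD, n = 2 each). Both ATRA libraries were below both ethanol libraries. The log2 fold change was -0.46 ± 0.24, with an interval of -1.05 to 0.13 (edgeR quasi-likelihood adjusted p 0.435), and the within-number differences were -0.26 and -0.66. PTBP1 passed under none of 11 other settings.

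PTBP2, the neuronal paralogue whose own mRNA PTBP1 keeps low through exon skipping, had 45.7 and 72.2 CPM with ATRA, against 73.9 and 71.5 CPM with ethanol. ATRA 1 stood below the other 3 libraries, which lay close together. Its log2 fold change was -0.30 ± 0.29, with an interval of -1.02 to 0.42 (edgeR quasi-likelihood adjusted p 0.724), and -0.69 and 0.02 within libraries of the same number. PTBP2 reads were 0.187 and 0.329 of PTBP1 reads with ATRA, against 0.252 and 0.206 with ethanol. The log2 difference of that ratio was 0.12, with -0.43 and 0.68 within libraries of the same number and an exact permutation p of 1. The smallest p that 2 against 2 libraries allow is 0.333, so this test could not have called a shift of any size. Without ATRA replicate 2 the difference was -0.29 and without ethanol replicate 2 it was -0.02, while it was 0.53 without ATRA replicate 1 and 0.27 without ethanol replicate 1. PTBP3, another paralogue and not a member, had 73.6 and 109 CPM with ATRA, against 69.9 and 112 CPM with ethanol.

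SRRM4, the microexon regulator, had 15.2 and 27.6 CPM with ATRA, against 30.5 and 29.98 CPM with ethanol. As for PTBP2, ATRA 1 was the low library. The log2 fold change was -0.49 ± 0.35, with an interval of -1.36 to 0.37 (edgeR quasi-likelihood adjusted p 0.598), and -0.99 and -0.12 within libraries of the same number. Its paralogue SRRM3, which also acts on microexons, had 52.0 and 53.1 CPM with ATRA, against 64.7 and 49 CPM with ethanol (log2 -0.11 ± 0.26; edgeR quasi-likelihood adjusted p 0.909).

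**Figure D3:**
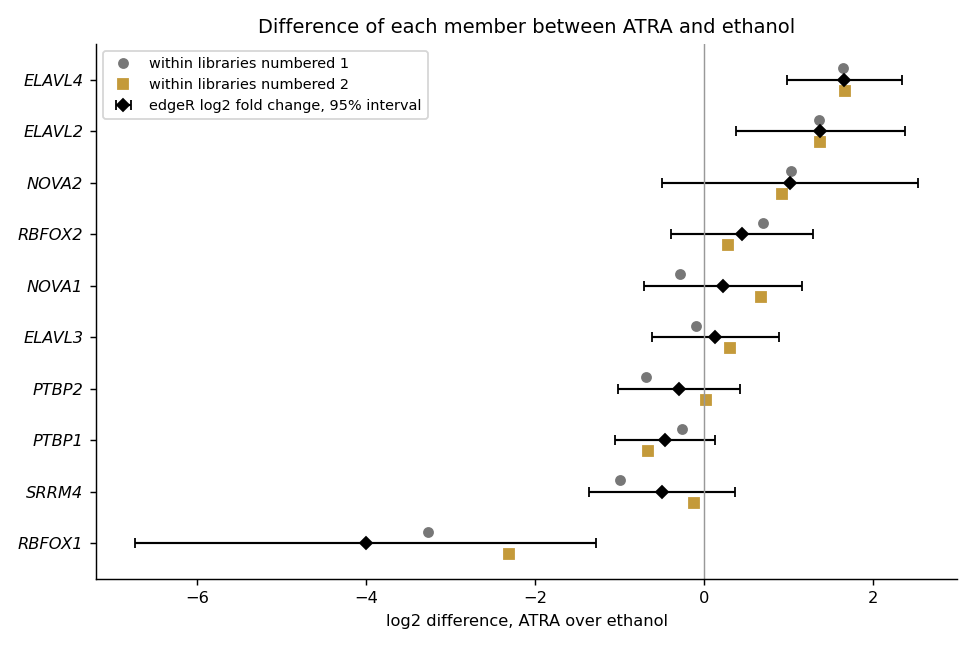
Log2 difference of ATRA over ethanol for each member (x axis): diamonds are edgeR log2 fold changes with their 95% intervals, circles the difference within libraries numbered 1 and squares that within libraries numbered 2. The intervals of ELAVL4 (0.98 to 2.33), ELAVL2 (0.37 to 2.37) and RBFOX1 leave out 0, and the within-number points of NOVA1, ELAVL3 and PTBP2 lie on either side of 0. RBFOX1 passed the count filter through the ethanol libraries alone and could enter the test only as lower with ATRA.

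Levels between members can be compared only per length, here as CPM per kilobase of exon. With ATRA the order was RBFOX2 (83.7 ± 15.1), ELAVL4 (64.5 ± 11.7), PTBP1 (62.8 ± 4.89), ELAVL3 (11.8 ± 3.78), ELAVL2 (7.08 ± 2.57), PTBP2 (4.90 ± 1.56), SRRM4 (2.53 ± 1.03), NOVA1 (2.07 ± 0.626), NOVA2 (1.57 ± 0.949) and RBFOX1 (0.00701 ± 0.00991). Library values of neighbours overlapped for ELAVL4 and PTBP1, ELAVL2 and PTBP2, SRRM4 and NOVA1, and NOVA1 and NOVA2. With ethanol PTBP1 came first (86.6 ± 10.3), followed by RBFOX2 (61.4 ± 23.2), ELAVL4 (20.4 ± 3.49), ELAVL3 (10.8 ± 1.41), PTBP2 (6.04 ± 0.145), SRRM4 (3.57 ± 0.0425), ELAVL2 (2.73 ± 0.989), NOVA1 (1.78 ± 0.295), NOVA2 (0.778 ± 0.435) and RBFOX1 (0.132 ± 0.00536). No neighbours overlapped in that order, although the lower ELAVL2 value (2.03) was close to the higher NOVA1 value (1.99). All are means ± SD of 2 libraries. ELAVL2 ranked 5 with ATRA and 7 with ethanol, and PTBP1 ranked 3 with ATRA and 1 with ethanol, while no other member differed by more than 1 rank.

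**Figure D4:**
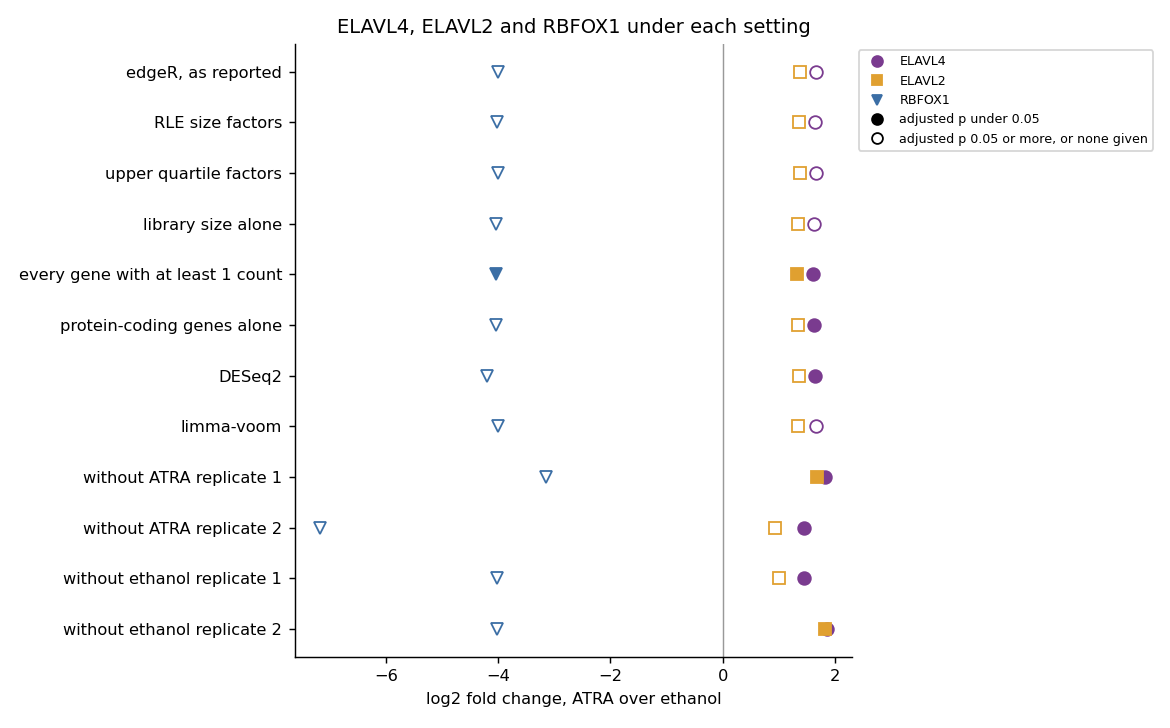
Log2 fold change of ATRA over ethanol (x axis) of ELAVL4, ELAVL2 and RBFOX1 under the fit reported here and 11 other settings (rows, where every gene with at least 1 count stands for all detected genes); filled symbols have an adjusted p under 0.05. ELAVL4 stays between 1.45 and 1.86 and is filled in 7 of the 11 other settings, while RBFOX1 moves between -7.17 and -3.16.

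Genes that work with or against the members were read from fixed lists. These lists were chosen with earlier results of these data known. Over all genes tested, 0.545% passed on the higher side and 0.153% on the lower side. At an unadjusted p under 0.05 these shares were 9.43% and 6.49%, and with DESeq2 5.03% and 2.89%. The median log2 fold change over all genes tested was 0.01. Of REST and 16 of its corepressors and partners, 0 of 17 passed (1 higher and 2 lower at an unadjusted p under 0.05; DESeq2 called 1 higher and 1 lower), with a median log2 fold change of -0.18. REST itself, the repressor of neuronal genes that SRRM4 opposes through splicing, had 679 and 139 reads with ATRA, against 12 and 8 with ethanol. In CPM these were 46.0 and 8.32 with ATRA, against 0.924 and 0.396 with ethanol. The groups were far apart, and the ATRA libraries also differed more than 5-fold from each other. Its ethanol counts alone would not have passed the count filter, so REST entered the test with help from its higher ATRA counts. The log2 fold change was 5.40 ± 1.00 (edgeR quasi-likelihood adjusted p 0.0781), with 5.42 and 4.09 within libraries of the same number. It was 3.68 without ATRA replicate 1, 6.16 without ATRA replicate 2, 6.03 without ethanol replicate 1 and 4.87 without ethanol replicate 2. By edgeR quasi-likelihood it passed without any single library except ethanol replicate 1 (adjusted p 0.322 there). The histone methyltransferase gene SUV39H1 and the corepressor gene RCOR1 were at -1.57 ± 0.42 and -0.79 ± 0.26 (edgeR quasi-likelihood adjusted p 0.153 and 0.213).

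Among 50 other neural and tissue RNA-binding proteins, 40 passed the count filter and 0 passed the test (9 higher and 2 lower at an unadjusted p under 0.05; DESeq2 called 3 higher and 1 lower). The median log2 fold change was 0.02. CELF5 and ZFP36L1, among the 9 higher, passed the count filter through the ATRA libraries alone. The poly(C)-binding protein gene PCBP4 had 112 and 99.96 CPM with ATRA, against 44.8 and 43.5 CPM with ethanol (log2 1.26 ± 0.23; edgeR quasi-likelihood adjusted p 0.0782). CELF3, a neuronal splicing regulator, had 59.6 and 118 CPM with ATRA, against 17.9 and 28.4 CPM with ethanol (log2 1.93 ± 0.42; adjusted p 0.104 by edgeR quasi-likelihood). CPEB4, which controls poly(A) tails and carries a microexon in neurons, had 155 and 195 CPM with ATRA, against 84.6 and 86.5 CPM with ethanol (log2 1.03 ± 0.25; adjusted p 0.123 by edgeR quasi-likelihood).

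Of 17 mRNAs reported to be bound by neuronal ELAVL proteins, 15 passed the count filter and 0 passed the test (3 higher at an unadjusted p under 0.05; DESeq2 called 2 higher), with a median log2 fold change of 0.50. ACHE, acetylcholinesterase, had 3.93 and 8.32 CPM with ATRA, against 0.616 and 1.34 CPM with ethanol (log2 2.62 ± 0.68; edgeR quasi-likelihood adjusted p 0.142). MYC had 8.13 and 2.27 CPM with ATRA, against 0.924 and 0.149 CPM with ethanol (log2 3.33 ± 1.05; edgeR quasi-likelihood adjusted p 0.203). Ethanol counts of ACHE and MYC alone would not have passed the count filter, so both entered the test with help from their higher ATRA counts. GAP43, the growth cone protein gene, had 155 and 314 CPM with ATRA, against 122 and 114 CPM with ethanol. Its difference was 0.35 within libraries 1 and 1.46 within libraries 2.

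The list with calls held genes with exons known to be chosen by the members. Of 29, 27 passed the count filter, 2 rose and 0 fell, and the median log2 fold change was 1.01. Over all genes tested, 0.545% rose and 0.153% fell, with a median of 0.01. At an unadjusted p under 0.05 there were 15 higher and 1 lower, beside 9.43% and 6.49% of all genes. DESeq2 called 11 higher and 0 lower, beside 5.03% and 2.89%. Among the 15, CACNA1C and FAS passed the count filter through the ATRA libraries alone. The 1 lower gene, GLRA2, passed it through the ethanol libraries alone. The filter thus set the side of CACNA1C, FAS and GLRA2. REST would not have passed the filter on its ethanol counts alone. All of these genes also enter the median. FN1, fibronectin, whose EIIIB exon RBFOX2 acts on, rose to 464 and 682 CPM with ATRA, against 21.7 and 33.8 CPM with ethanol (log2 4.37 ± 0.38; edgeR quasi-likelihood adjusted p 0.0274). KCNMA1, a calcium-activated potassium channel gene, rose to 58.4 and 43.2 CPM with ATRA, against 11.7 and 9.07 CPM with ethanol (log2 2.29 ± 0.31; adjusted p 0.0459 by edgeR quasi-likelihood). Its call ended with upper quartile factors (0.0521, edgeR quasi-likelihood) and with limma-voom (0.0635). Among fibroblast and muscle markers, COL1A1 and ACTA2 were also higher in both ATRA libraries (log2 5.26 ± 1.29 and 3.54 ± 0.78; edgeR quasi-likelihood adjusted p 0.128 and 0.107), while DCN was at -0.64 ± 0.81, and their part in the FN1 result was not tested. COL1A1 too would not have passed the count filter on its ethanol counts alone. These are total mRNA levels, which do not show which exons were used.

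**Figure D5:**
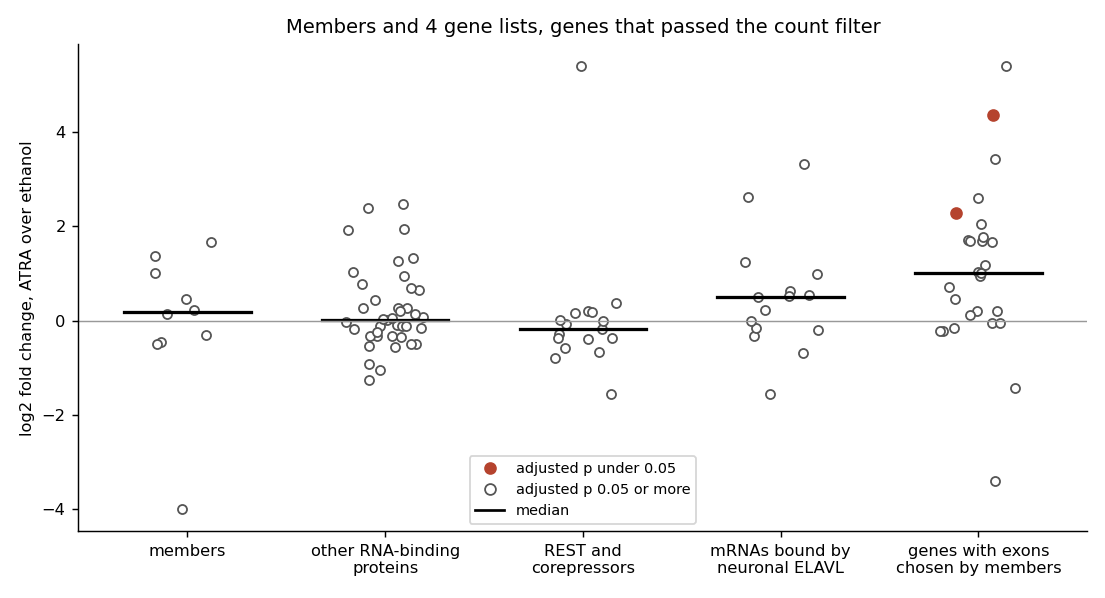
Log2 fold change of ATRA over ethanol (y axis) for the 10 members and for the genes of the 4 lists that passed the count filter, one point per gene; filled points have an edgeR adjusted p under 0.05 and bars are medians. Filled points are FN1 and KCNMA1, in the list of genes with exons chosen by the members, whose median is 1.01 beside 0.18 for the members; REST belongs to 2 lists and is drawn in both.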

How the data were processed

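The authors deposited 1 table of unnormalised counts, with a row per gene symbol and a column per library. Per the submitters' processing notes, STAR 2.5.2b, featureCounts 1.5.1 and the build hg19 were named; the annotation, the strand setting and the handling of shared reads are not stated there, so reads of overlapping or antisense genes cannot be told apart. Per the labels' protocols, ribosomal RNA was depleted and a directional kit was used. From the counts, genes were kept by filterByExpr (minimum count 10), scaled by TMM and tested with edgeR 4.0.16 in R 4.3.3 (robust quasi-likelihood F test, two-sided, Benjamini-Hochberg over 18900 genes, threshold 0.05, treatment as the sole term). Standard errors are the log2 fold change over the square root of F, and intervals use the moderated degrees of freedom. Levels are CPM on TMM-scaled library sizes. Within-number differences are log2 CPM with a prior count of 2, and ratios between paralogues add 0.5 to each count. Counting intervals are exact at 95% and cover counting error only. Exon lengths (union of exons) and gene types came from GENCODE 29, a later build, used for names, types and lengths alone. DESeq2 1.42.0 and limma 3.58.1 served as alternatives. The fitting procedure was tested on simulated counts with the same extra spread for every gene and no shared deviation by library number. That test does not show how well the p-values hold for these data. The members and lists were chosen with earlier results of these data known. Named are all members, 4 paralogues and REST, and per list up to 3 called genes in each direction or the 3 with the smallest p; protein sequences were not used here.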

Additional observations from a re-analysis of the deposited data

How the results depend on the processing

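Over 24 genes with fold changes under other settings, 238 of 312 values kept direction and side of the threshold, 60 newly passed, 2 no longer passed and 12 changed direction. Members called higher were 0 as reported, 1 with DESeq2 and with protein-coding genes alone, 2 with all detected genes, and 1 to 2 without single libraries; members called lower were 1 with all detected genes (1 read or more). Genes called in all were 132 (103 higher, 29 lower), against 1380 (877 and 503) with DESeq2, 50 (43 and 7) with limma-voom, 259 (184 and 75) with protein-coding genes alone, 1821 (1126 and 695) with all detected genes, and 870 to 1442 (547 to 838 and 231 to 604) without single libraries. The cause of these changes was not tested.

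In the exon list, 2 called higher became 11 with DESeq2, 12 with all detected genes, 1 with limma-voom and with upper quartile factors, and 6 to 9 without single libraries. Calls in the other lists were 0 as reported. For other RNA-binding proteins they were 3 higher and 1 lower with DESeq2, 2 and 1 with all detected genes, and 1 to 2 higher and 0 to 2 lower without single libraries. For REST and its corepressors they were 1 and 1 with DESeq2 and with all detected genes, and 0 to 1 higher without single libraries. For mRNAs bound by ELAVL proteins they were 2 higher with DESeq2 and with all detected genes, and 1 to 2 without single libraries.

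The title number as a replicate block was tried because libraries of the same number deviated together (correlation 0.638 across genes), although the labels do not say what the number marks. With the replicate block edgeR called 4098 genes (2325 higher, 1773 lower; 12.3% and 9.38%), and DESeq2, added after seeing the data, 2727 (1528 and 1199; 8.95% and 7.03%). Members called were 3 higher (ELAVL4, ELAVL2 and NOVA2) and 1 lower (RBFOX1) with edgeR, and 2 higher with DESeq2 and the block. With the block, edgeR and DESeq2 called 10 and 5 other RNA-binding proteins higher and 2 and 3 lower, 1 and 1 of the REST list higher and 4 and 2 lower, 2 and 3 ELAVL-bound mRNAs higher and 1 and 1 lower, and 13 and 13 of the exon list higher, with 1 lower in edgeR.

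Directions changed for genes near 0: ELAVL3 was at -0.25 without ATRA replicate 2 and -0.04 without ethanol replicate 1, NOVA1 at -0.13 without ATRA replicate 2, and SRRM3 at 0.0554 without ethanol replicate 1. Without single libraries ELAVL3 ranged from -0.2499 to 0.4171, NOVA1 from -0.1337 to 0.4969, SRRM3 from -0.2853 to 0.0554 and PTBP3 from -0.3426 to 0.3986. PTBP3, at 0.0034, was at -0.0176 with RLE size factors, -0.0325 with library size alone, -0.0530 with all detected genes, -0.0292 with protein-coding genes alone, -0.0175 with DESeq2, -0.0013 with DESeq2 and the block, and -0.32 and -0.34 without ATRA replicate 2 or ethanol replicate 1. The RBFOX1 to RBFOX2 ratio differed by -4.51 on the log2 scale, by -3.28 with a pseudocount of 2, and by -5.40 to -3.62 without single libraries. On the same scale and without single libraries, the NOVA1 to NOVA2 ratio differed by -1.76 to 0.18, the PTBP2 to PTBP1 ratio by -0.29 to 0.53 and the ratio of neuronal ELAVL genes to ELAVL1 by 1.36 to 1.89. The lone library of a group was then assumed to vary like the other group. With exon union replaced by the longest transcript, added after seeing the data, NOVA1 stood above SRRM4 with ATRA (2.97 and 2.53 CPM per kilobase). RBFOX1 rests on 0 and 2 reads with ATRA and 15 and 22 reads with ethanol.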

Other observations

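Some genes of the lists fall outside the rule for naming and were chosen after their values were seen; none passed the test. Among RNA-binding proteins, the neuronal CELF5 had 2.37 and 2.87 CPM with ATRA, against 0.385 and 0.595 CPM with ethanol (log2 2.38 ± 0.62; edgeR quasi-likelihood adjusted p 0.141). CELF5 passed the count filter through the ATRA libraries alone, so it could enter the test only as higher with ATRA. CPEB1, which acts on poly(A) tails, had 2.44 and 4.49 CPM with ATRA, against 0.770 and 1.04 CPM with ethanol. MBNL3, a muscleblind splicing factor, had 57.4 and 73.2 CPM with ATRA, against 210 and 105 CPM with ethanol (log2 -1.27 ± 0.38; edgeR quasi-likelihood adjusted p 0.186), and QKI, a splicing regulator of glia, 62.5 and 52.5 CPM, against 75.8 and 142 CPM. Among genes whose exons the members choose, TRIO, a guanine exchange factor of growing axons, had 1574 and 969 CPM with ATRA, against 332 and 280 CPM with ethanol (log2 2.06 ± 0.33; edgeR quasi-likelihood adjusted p 0.0655). AGRN, agrin, a matrix protein of the neuromuscular junction, had 54.8 and 52.8 CPM with ATRA, against 19.3 and 14.0 CPM with ethanol (log2 1.69 ± 0.28; edgeR quasi-likelihood adjusted p 0.0657). GLRA2, a glycine receptor subunit gene regulated by NOVA1 in mouse, had 1 read in each ATRA library, and 9 and 16 reads with ethanol. It passed the count filter through the ethanol libraries alone, so it could enter the test only as lower with ATRA.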
